A study of Mus musculus with 18 samples.

Results

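Genes of milk defence and antibody transport were followed across 17 mouse mammary single-cell libraries. They are Glycam1, Trf, Ltf, Spp1, Pigr, Ccl28, Cd14 and Fcgbp, 8 of the 31053 genes that the count tables list. They were chosen by name from what their products do, with earlier results of these data known. Setting the count of members called beside the share of all genes is therefore descriptive. Each library was made with the 10x Chromium 3′ protocol, which tags every captured RNA molecule with a unique molecular identifier (UMI), so that a count is a number of molecules. The study followed mammary epithelium from the embryo to post-involution. It held 18 libraries, of which the skin library of embryonic day 18.5 (E18.5) was not mammary. Cells were kept by gene number, total count and mitochondrial share, which left 123574 cells in the 17 mammary libraries.

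The stages that could be compared came from FVB/NJ females. They were adult virgins of 10 weeks (libraries A10, P7 and D12), pregnancy at 12.5 days (H and G), pregnancy at 18.5 days (F4 and B4), lactation 10 days after birth (F11 and D6) and 1 post-involution library, which the labels place 3 weeks after birth but the study from weaning, a difference not settled here. Single libraries, given as values only, came from C57BL/6 mice at E18.5, at postnatal day 5, before puberty (2.5 weeks), in puberty at 5 weeks (terminal end buds, TEB, and ducts) and as 10-week virgins, and from SWISS 10-week virgins. The E18.5 rudiments came from embryos carrying the Lgr5-GFP-IRES-creERT2 knock-in and the TEB and ducts from Ecadherin-GFP females, both reporters being used to guide dissection. Glands were pooled from several mice per library, adults were not staged for the estrous cycle, and cells were sorted as negative for endothelial, red-cell and leukocyte markers and positive for CD24 and CD29. A library, not a cell, is therefore the replicate, and p-values measure the spread between pooled libraries.

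The gland is a mucosal organ as well as a source of nutrients. Its secretory cells line alveoli that arise in pregnancy from luminal progenitor (LP) cells, and they release iron-binding proteins, mucin-like proteins and soluble pattern receptors with the caseins. Antibody reaches milk by a separate route, in which IgA made by plasma cells in the stroma is taken up by a receptor on the base of the epithelial cell, carried across it and released with a piece of that receptor attached. Basal cells contract around the alveoli, and mature luminal (ML) cells are the hormone-sensing cells of the ducts.

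The promoters of Glycam1, Pigr and Ccl28 are shown because these 3 members were higher at lactation than in adult glands under every scaling tried. The runs below are the 250 bases before each gene's start on its own strand, from RefSeq on mm10 (GRCm38), which held 6 of the 8 members. Capitals mark the letters TTCNNNGAA, searched on both strands and read by STAT5, the factor that prolactin activates.

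Glycam1, chr15:103565082-103565331, minus strand: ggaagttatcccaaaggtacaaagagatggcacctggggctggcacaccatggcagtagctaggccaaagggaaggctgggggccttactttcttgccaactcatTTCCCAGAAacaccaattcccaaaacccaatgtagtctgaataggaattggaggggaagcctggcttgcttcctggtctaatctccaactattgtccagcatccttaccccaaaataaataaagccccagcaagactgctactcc

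Pigr, chr1:130826434-130826683, plus strand: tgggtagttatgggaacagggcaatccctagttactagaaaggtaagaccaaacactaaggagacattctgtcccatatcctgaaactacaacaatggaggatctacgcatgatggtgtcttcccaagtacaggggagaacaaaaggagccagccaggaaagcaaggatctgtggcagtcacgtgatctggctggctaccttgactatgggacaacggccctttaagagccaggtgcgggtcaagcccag

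Ccl28, chr13:119623569-119623818, plus strand: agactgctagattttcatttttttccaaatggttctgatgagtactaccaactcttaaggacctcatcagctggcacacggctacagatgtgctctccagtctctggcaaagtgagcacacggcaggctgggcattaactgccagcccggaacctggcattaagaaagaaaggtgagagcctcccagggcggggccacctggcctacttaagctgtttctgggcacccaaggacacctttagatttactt

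Only the Glycam1 run held the TTCNNNGAA letters, as TTCCCAGAA from 145 to 137 bases before the start. The pattern TTCNNNGAA, though not the letters matched here, is its own reverse complement, and the first letters of the match are also a GGAA match on the other strand. Among 32851 promoters of the same length, 7.02% held TTCNNNGAA and 93.4% held GGAA on either strand. The windows of Ltf, Spp1, Pigr, Ccl28 and Fcgbp did not hold these 9 letters, which says nothing of STAT5 elsewhere at those genes.

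On mm10, Glycam1 lay on chromosome 15 from 103562759 to 103565081 (minus strand), Pigr on chromosome 1 from 130826684 to 130852249 (plus) and Ccl28 on chromosome 13 from 119623819 to 119654359 (plus). Trf and Ltf both lay on chromosome 9, at 103204001 to 103230444 (minus) and 111019271 to 111042767 (plus). Spp1 lay on chromosome 5 at 104435118 to 104441050 (plus), Cd14 on chromosome 18 at 36725067 to 36726798 (minus) and Fcgbp on chromosome 7 at 28071236 to 28120862 (plus). All 8 are protein coding. In the GENCODE annotation, 7 of them overlapped no other gene, whereas Trf shared its strand with the overlapping model Gm20425, so reads of that stretch may be split or dropped in counting.

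Cells were clustered and named from fixed marker genes. LP and alveolar cells fell into 1 class, called LP/alveolar, with 562 to 5764 cells per library except in the puberty libraries, which held 292 (TEB) and 479 (duct). The members and the milk reference genes were left out of the counts used for that clustering and naming. Differences in level between classes are given without a test. Only the difference in change between LP/alveolar and basal cells was tested. In adult library D12 the LP/alveolar class expressed 6 of 6 LP markers but no Olah, an alveolar marker. In the FVB/NJ libraries this class was the highest for 3 to 6 of 6 LP markers, except in lactation D6, where it was the highest for 1. It was the highest for 6 of 6 alveolar markers in every pregnancy and lactation library, and for 4 to 6 in adult ones. In the E18.5 library it was the highest for 4 of 6 in each list, with no Olah. Adult library P7 stood apart in its barcodes, of 14 bases against 16 in the others, and in its depth, a median of 2498 UMIs, the lowest of the FVB/NJ libraries. Relative to the class total, it also had the highest adult FVB/NJ levels of Trf, Ltf, Spp1, Pigr, Cd14 and Fcgbp. Leaving it out ended no call of a member other than those of Spp1 given further on. FVB/NJ libraries shared 0 to 253 cell barcodes per pair, 5233 over 45 pairs. Kept cells per FVB/NJ library ran from 3187 to 13397, with medians of 2498 to 8770 UMIs.

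Scaling decides how a lactation level is read. The 7 milk reference genes (5 caseins, Wap and Lalba) took 75.6% and 77.0% of all LP/alveolar counts at lactation, 31.4% and 32.0% at pregnancy day 18.5, 13.0% and 13.7% at day 12.5, and 0.203% to 3.74% in adult libraries. Levels are therefore given as scaled CPM, counts per 1000000 of the class sum divided by edgeR's TMM factor, which was 1.51 to 2.001 in adult and 0.307 and 0.283 in lactation LP/alveolar sums. Without TMM, the median log2 change of all genes from adult was -0.28 at day 12.5, -0.84 at day 18.5 and -2.64 at lactation, and it was -0.51 at lactation when totals left out the milk genes and the members. Every direction below is relative to the median gene, and plain CPM or UMIs per cell are added where they turn it. In bulk sums of this kind, fewer expressing cells and less RNA per cell cannot be told apart. The shares of cells given further on depend on both.

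From adult to pregnancy day 12.5, the LP/alveolar class as a whole had more Glycam1 and Pigr and less Ltf, Cd14 and Fcgbp. In all, 5 of the 8 members passed the test (edgeR quasi-likelihood, Benjamini-Hochberg adjusted p under 0.05 over 13840 genes), where 13.6% of all genes did. At day 18.5, Glycam1, Pigr and Ccl28 were higher and Fcgbp lower than in adult, 4 of 8 members against 20.1% of all genes. At lactation, Glycam1, Ltf, Pigr and Ccl28 were higher and Fcgbp lower, 5 of 8 members against 28.3% of all genes. The 3 comparisons share the adult libraries. They also compare different mixes of LP and alveolar cells. With each library clustered alone, the adult clusters of this class were led by LP markers. Alveolar-led and LP-led clusters held 3513 and 2230 cells in H, 2306 and 46 in F11, and 2856 and 855 in D6. The part of this mix in the changes was not tested.

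**Figure D1:**
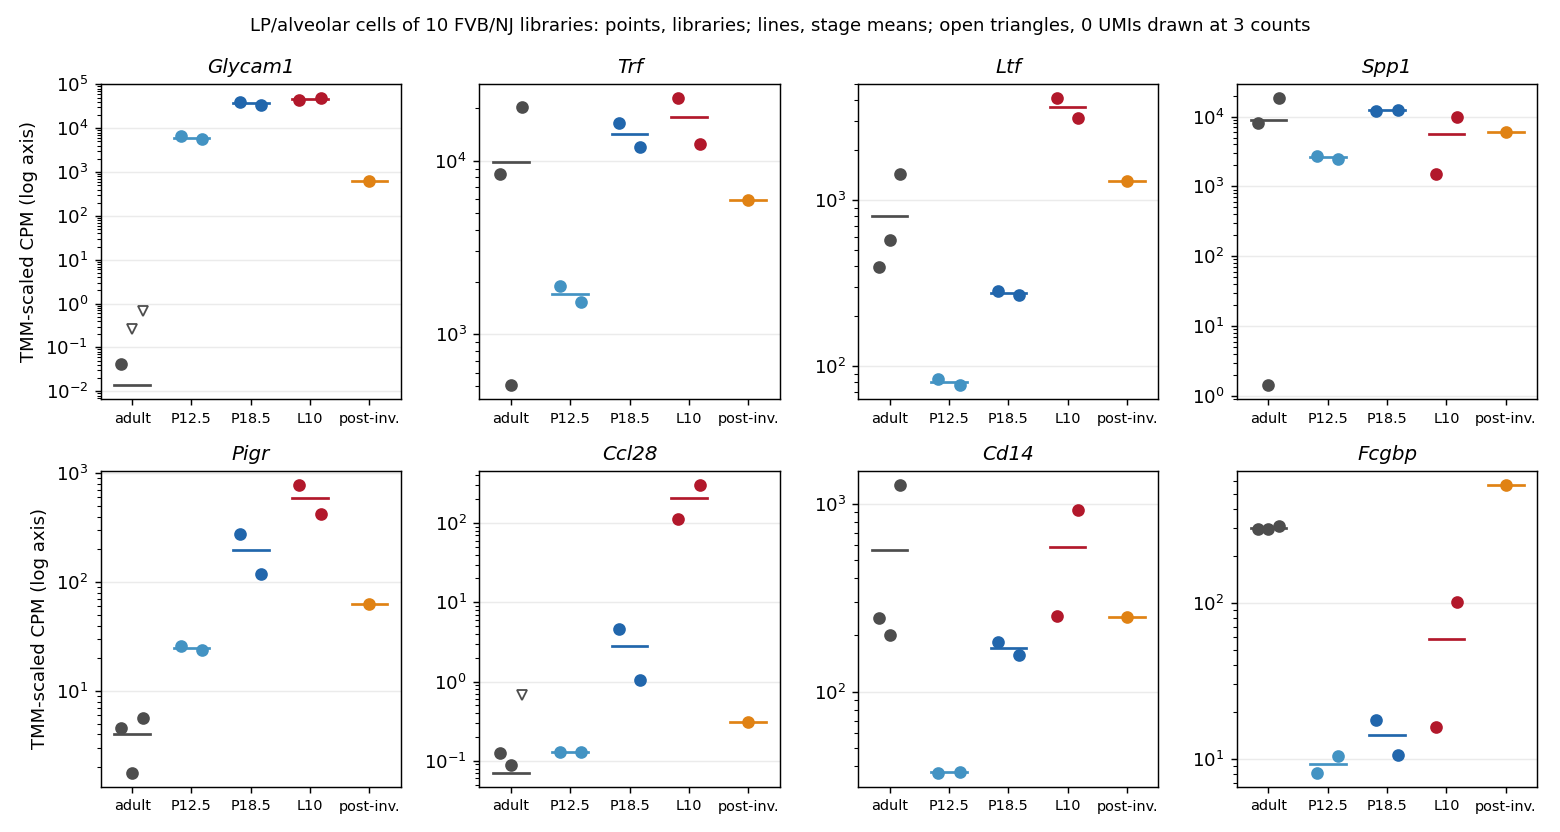
Level of each member in LP/alveolar cells of the 10 FVB/NJ libraries, 1 panel per gene, as TMM-scaled CPM on a log axis (vertical) by stage (horizontal), with 1 point per library, a line at the stage mean and open triangles where a library had 0 UMIs, drawn at 3 counts. Glycam1 goes from 0.0415 in adult A10, with open triangles for P7 and D12, to 43571 and 49061 at lactation. The adult points of Spp1 lie from 1.43 to 18454.

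Glycam1 encodes a mucin-like glycoprotein of milk that also carries adhesion sugars on lymph node vessels. A single Glycam1 UMI was counted in the LP/alveolar cells of the 3 adult FVB/NJ libraries, in A10. Its scaled CPM was 5679 and 6565 at pregnancy day 12.5 (H and G), 34367 and 39957 at day 18.5 (F4 and B4) and 49061 and 43571 at lactation (F11 and D6). No pregnancy or lactation library came near the adult ones. With 1 count in the denominator, the ratio to adult had a wide counting interval, 240457-fold at day 12.5 (95% Poisson interval 43157 to 9497570) and 1804660-fold at lactation (323901 to 71280500), or 319213-fold on plain CPM. Adjusted p was 0.00019 at day 12.5, 4.1e-05 at day 18.5 and 2.8e-05 at lactation (edgeR).

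Most of the rise was in place by day 18.5. The log2 difference between day 18.5 and day 12.5 was 2.60 (SE 0.81, adjusted p = 0.15, edgeR), and that between lactation and day 18.5 was 0.32 (SE 0.77, adjusted p = 0.89). Neither passed the test, and the second turned to -1.44 without TMM. Per cell, LP/alveolar cells held 246 and 466 Glycam1 UMIs at day 18.5 and 155 and 234 at lactation, so the lactation cells held no more than the late-pregnancy ones on that count.

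Trf encodes transferrin, the iron carrier that alveolar cells add to milk. It was already high in adult LP/alveolar cells, but unevenly, with a scaled CPM of 8389 in A10, 20418 in P7 and 509 in D12. Pregnancy day 12.5 gave 1533 and 1890, day 18.5 gave 12012 and 16567, and lactation gave 12546 and 22946. The adult range overlapped every later stage. Trf passed no test among the LP/alveolar comparisons, with log2 changes from adult of -2.51 (SE 1.22), 0.55 (SE 1.09) and 0.86 (SE 1.09) and adjusted p of 0.20, 0.75 and 0.59 (edgeR). Without TMM the Trf changes at day 18.5 and lactation turned to -0.35 and -1.81. Without D12 the day 12.5 change was -3.09 with an adjusted p of 0.034.

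Ltf encodes lactoferrin, which withholds iron from bacteria. Its scaled CPM was 393, 1423 and 572 in adult A10, P7 and D12, 76.7 and 83.7 at day 12.5, 268 and 283 at day 18.5, and 3110 and 4112 at lactation. The level was lowest in mid-pregnancy and highest at lactation, and neither stage overlapped the adult libraries on this scale. The fall at day 12.5 was 3.31 on the log2 scale (log2 change -3.31, SE 0.66, adjusted p = 0.013), the difference at day 18.5 was -1.53 (SE 0.61, adjusted p = 0.10), and the rise at lactation was 2.18 (SE 0.57, adjusted p = 0.019, edgeR). From day 18.5 to lactation Ltf rose by 3.71 (SE 0.70, adjusted p = 0.020).

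The sign of the lactation change in Ltf depended on the scale. Plain CPM was 592, 2847 and 1076 in adult and 955 and 1163 at lactation, a log2 change of -0.51 (adjusted p = 0.44) without TMM. With totals outside the milk genes it was 1.60 (adjusted p = 0.076). UMIs per cell were 3.25, 8.44 and 4.69 in adult against 9.83 and 22.1 at lactation, higher in both. The call was also lost without D6 (1.92, adjusted p = 0.11) and with clusters of each library alone (1.73, adjusted p = 0.056), and the day 12.5 call without H or without G (adjusted p = 0.17 and 0.16). The rise from day 18.5 was lost without any 1 of the 6 pregnancy and lactation libraries (3.45 to 3.85, adjusted p = 0.053 to 0.22).

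Spp1 encodes osteopontin, a phosphoprotein of milk that binds integrins and CD44. Its scaled CPM was 8079 in adult A10, 18454 in P7 and 1.43 in D12, then 2482 and 2766 at day 12.5, 12232 and 12212 at day 18.5, and 9810 and 1529 at lactation. Library D12 stood apart from the other adult libraries, with 0.0118 Spp1 UMIs per LP/alveolar cell against 66.8 in A10 and 109 in P7. No stage differed from adult in the test, with log2 changes of -1.75 (SE 1.95), 0.47 (SE 1.81) and -0.64 (SE 1.86) and adjusted p of 0.58, 0.88 and 0.83 (edgeR). The day 18.5 change of Spp1 turned to -0.42 without TMM. The lactation change was -2.57 without F11, 0.11 without D6 and 0.49 without P7, none of them called.

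**Figure D2:**
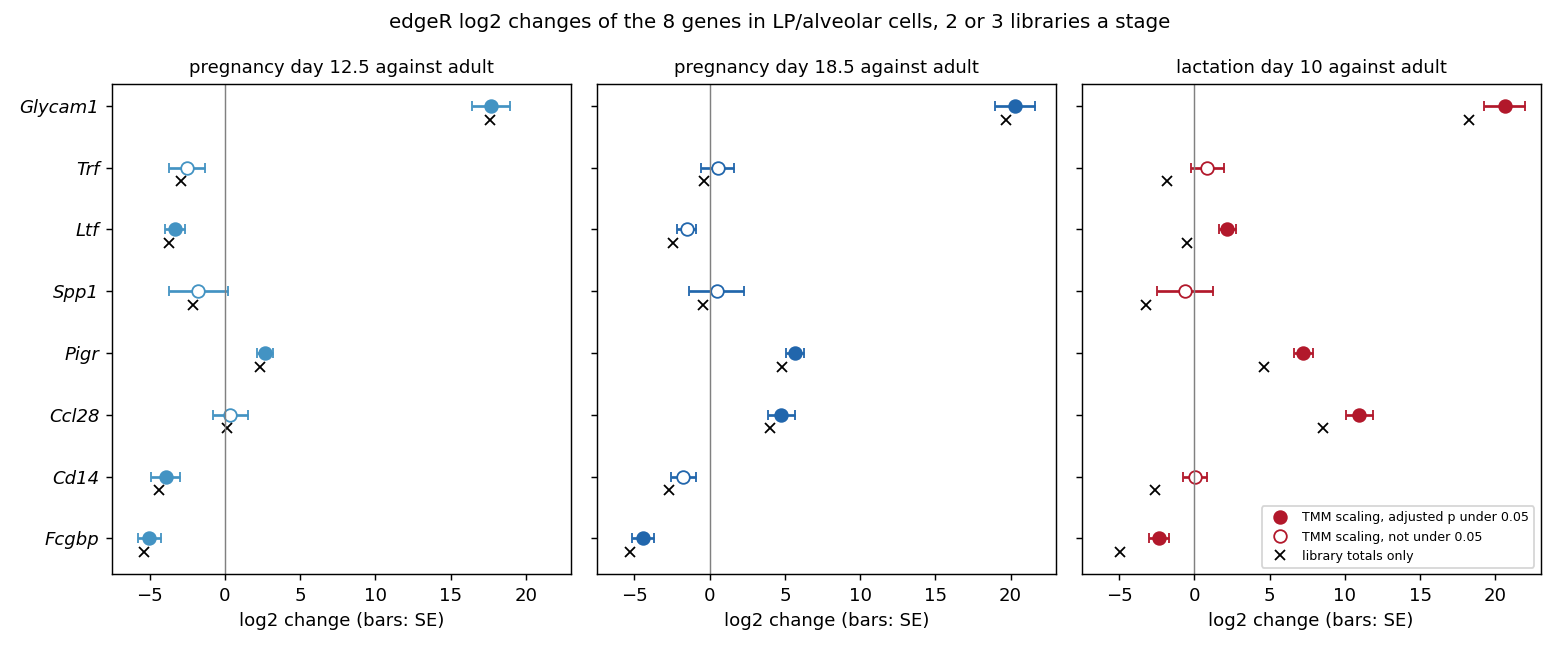
Log2 change of each member in LP/alveolar cells (horizontal axis, bars of 1 SE) against adult, 1 panel per stage, with filled points where the adjusted p was under 0.05, open points elsewhere and crosses for library totals without TMM (edgeR). Pigr and Ccl28 have filled points right of 0 at pregnancy day 18.5 and lactation, with their crosses on the same side. Fcgbp lies left of 0 in all 3 panels. The crosses of Trf (-1.81), Ltf (-0.51) and Cd14 (-2.61) at lactation and of Trf (-0.35) and Spp1 (-0.42) at day 18.5 lie on the other side of 0 from their points.

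Pigr encodes the polymeric immunoglobulin receptor that ferries IgA across the cell. Its scaled CPM rose at each step, from 4.60, 5.66 and 1.79 in adult A10, P7 and D12 to 24.1 and 25.9 at day 12.5, 120 and 279 at day 18.5, and 424 and 774 at lactation. No library of one stage overlapped those of another. The log2 change from adult was 2.66 (SE 0.55, adjusted p = 0.014) at day 12.5, 5.66 (SE 0.60, adjusted p = 0.0005) at day 18.5 and 7.25 (SE 0.64, adjusted p = 9.3e-05) at lactation, and 4.66 at lactation without TMM (adjusted p = 4.8e-05). The step from day 12.5 to day 18.5 was 3.00 (SE 0.62, adjusted p = 0.057), and that from day 18.5 to lactation was 1.59 (SE 0.59, adjusted p = 0.21), or -0.17 without TMM. The day 12.5 call was lost without H or without G (adjusted p = 0.10 and 0.11).

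Ccl28 encodes a chemokine that draws IgA-secreting plasma cells through the receptor CCR10. It was close to absent until late pregnancy, with 4 UMIs in all adult FVB/NJ LP/alveolar cells (scaled CPM 0.124, 0 and 0.0896) and 0.128 and 0.129 at day 12.5. It was 1.05 and 4.59 at day 18.5 and 299 and 111 at lactation, so both later stages lay above all adult libraries. From the counts, the ratio to adult was 24.5-fold at day 18.5 (95% Poisson interval 9.39 to 90.9) and 1741-fold at lactation (680 to 6393), or 308-fold on plain CPM. Adjusted p was 0.0064 at day 18.5 and 6.6e-05 at lactation (edgeR).

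Ccl28 was the 1 member that passed the test at each step after mid-pregnancy. From day 12.5 to day 18.5 it rose by 4.40 on the log2 scale (SE 0.80, adjusted p = 0.036), 1 of 8 members where 0.932% of all genes were called. From day 18.5 to lactation it rose by 6.20 (SE 0.78, adjusted p = 0.0032), and with Ltf made 2 of 8 members where 2.98% of all genes were called. The first step was lost without H, G, F11, B4 or D6 in turn (2.98 to 4.42, adjusted p = 0.052 to 0.53) and the second without F4 (5.46, adjusted p = 0.050).

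Cd14 encodes a co-receptor for bacterial lipopolysaccharide, of which milk holds a soluble form. Its scaled CPM was 247, 1251 and 201 in adult A10, P7 and D12, 37.2 and 37.1 at day 12.5, 156 and 184 at day 18.5, and 920 and 254 at lactation. It was lower at day 12.5 (log2 change -3.93, SE 0.94, adjusted p = 0.025) and did not pass the test at day 18.5 (-1.74, SE 0.84, adjusted p = 0.17) or lactation (0.05, SE 0.79, adjusted p = 0.97, edgeR). The lactation value turned to -2.61 without TMM (adjusted p = 0.022) and to -0.55 with totals outside the milk genes. The day 12.5 call was lost without H, G, F4 or B4 in turn (-3.91 to -3.94, adjusted p = 0.052 to 0.21).

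Fcgbp encodes a large secreted protein of mucus that binds the Fc part of IgG. It was the steadiest member in adult glands, at a scaled CPM of 296, 310 and 295, and fell to 10.4 and 8.16 at day 12.5. It stayed at 10.5 and 17.8 at day 18.5 and was 100.3 and 15.97 at lactation, so no pregnancy or lactation library reached the adult ones. The log2 change was -5.02 (SE 0.77, adjusted p = 0.0043), -4.41 (SE 0.74, adjusted p = 0.0039) and -2.37 (SE 0.66, adjusted p = 0.025) at the 3 stages (edgeR). With H or G left out the adjusted p at day 12.5 was 0.069 and 0.075. The day 18.5 call was lost without F4 (adjusted p = 0.057) and the lactation call without D6 (-1.64, adjusted p = 0.070) or with at least 1000 genes per cell (-2.00, adjusted p = 0.060).

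The share of cells with a UMI was read beside the levels. At a fixed depth this share rises with RNA per cell as well as with the number of expressing cells, so it cannot tell them apart. Milk genes took most LP/alveolar UMIs at lactation, which lowers the thinned shares there. After each cell was thinned to 1000 UMIs, Pigr was seen in 0.37% to 0.70% of adult LP/alveolar cells, 3.15% and 3.38% at day 12.5, 10.9% and 22.9% at day 18.5, and 12.2% and 20.8% at lactation. Without thinning the adult shares were 1.47% to 3.26% and the lactation shares were 62.7% and 90.2%. Fibroblasts of the lactation libraries, which should lack Pigr, gave 2.53% and 1.93% thinned, at median depths of 2156 and 2348 UMIs against 9213 and 18396 in LP/alveolar cells. The LP/alveolar shares lay above the fibroblast shares of their own libraries.

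Ccl28 was seen in 7.87% and 3.28% of thinned lactation LP/alveolar cells and in 0% to 0.07% of adult ones, with 50.6% and 40.4% unthinned at lactation. Lactation fibroblasts gave 3.80% and 0.21%, against 7.59% and 1.26% unthinned. Glycam1 reached 80.4% to 99.8% of thinned LP/alveolar cells in pregnancy and lactation, but also 100% and 60.3% of lactation fibroblasts. Fcgbp went from 27.4%, 35.5% and 33.0% of adult cells to 1.93% and 1.35% at day 12.5, and was 4.40% and 0.48% at lactation. Without thinning Glycam1 was seen in 96.0% to 100% of these cells, and Fcgbp in 52.8% to 57.6% of adult and in 13.7% and 2.64% of lactation cells. Shallower cells left out of these shares numbered at most 29 per LP/alveolar library.

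Glycam1 was still found after involution. The post-involution library held 16271 Glycam1 UMIs in 2931 LP/alveolar cells, a scaled CPM of 623, which was 24752-fold the adult level by counts (95% Poisson interval 4442 to 977709). As this stage had 1 library, it was assumed to vary like the other stages, and no spread of its own enters the test. Under that assumption Glycam1 was the 1 member and the 1 gene called of 14700 (0.0068%, edgeR), with an adjusted p of 0.0038, and the call was lost without A10 (adjusted p = 0.080), the library with the single adult UMI. DESeq2 called 48 genes there, 2 of them members, and in edgeR 623 genes stood below an unadjusted p of 0.05.

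Pigr was 62.5 scaled CPM in the post-involution library, above all adult and day 12.5 libraries, with a log2 change of 3.93 (SE 0.62, adjusted p = 0.081, edgeR). Fcgbp was 564, the highest of the 10 FVB/NJ libraries, with a log2 change of 0.86 (SE 0.73). Ltf was 1293, within the adult range on this scale, with a log2 change of 0.65 (SE 0.70). Neither was called. Per cell, Ltf stood at 11.5 UMIs, above the 3.25 to 8.44 of the adult libraries. Trf at 5920, Spp1 at 5950, Ccl28 at 0.307 and Cd14 at 249 had adjusted p of 0.96 to 0.99. In thinned cells Glycam1 was seen in 8.94% and Pigr in 5.61% of post-involution LP/alveolar cells, against 1.72% and 0% of its fibroblasts. Milk reference genes still took 9.70% of LP/alveolar counts in this library.

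**Figure D3:**
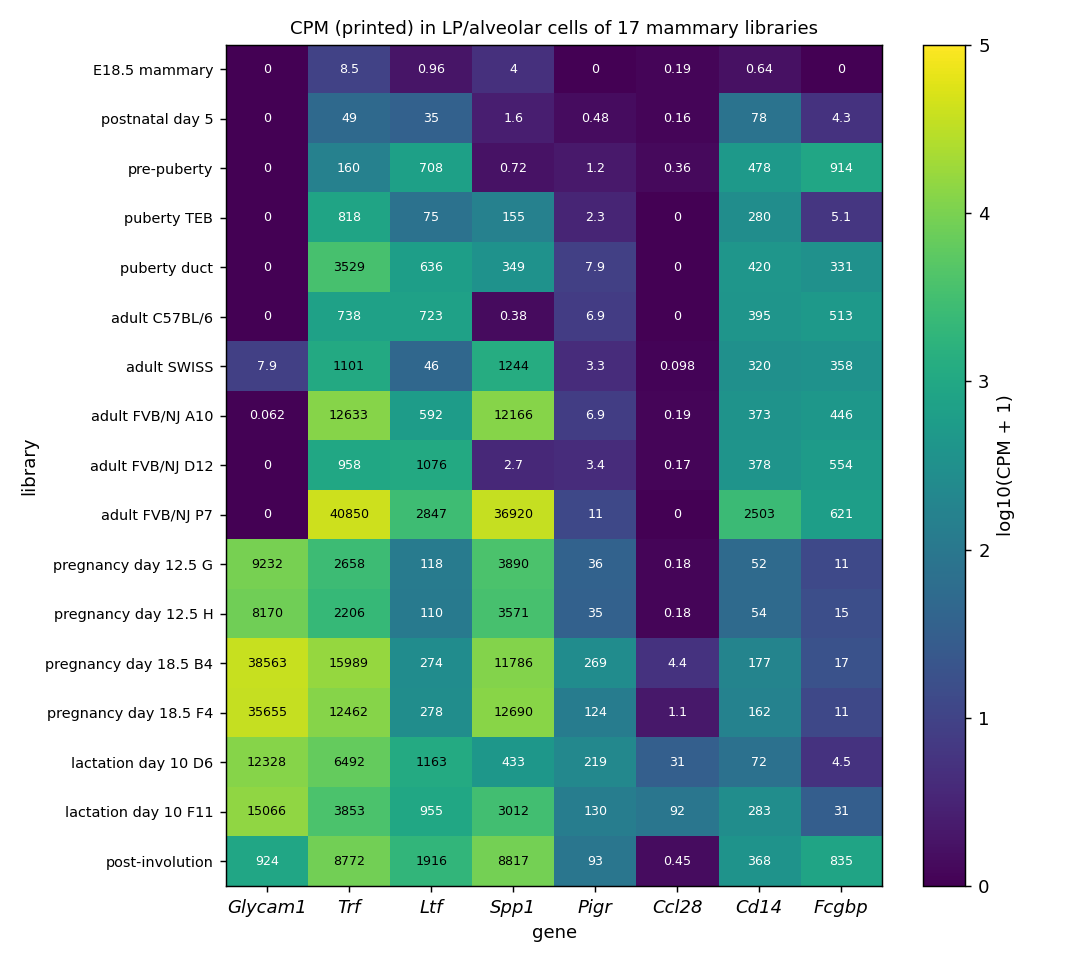
Plain CPM of each member (columns) in LP/alveolar cells of the 17 mammary libraries (rows, in order of stage), printed in each cell and coloured by log10 of CPM + 1. The E18.5 row reaches 8.53 at most, Fcgbp is 914 before puberty and 5.14 in the TEB library, and Glycam1 exceeds the 7.89 of SWISS only from pregnancy day 12.5 to post-involution.

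Before adulthood the members appeared at different times, in plain CPM and with 1 library per stage. At E18.5 the cells called LP/alveolar carry that name from the markers alone and need not be a committed luminal class. Their largest value was 8.53 for Trf, and Glycam1, Pigr and Fcgbp had no UMI in 2316 cells, which allows up to 0.193 CPM. At postnatal day 5, Cd14 was 78.4, Trf 49.5 and Ltf 34.6. Before puberty, Fcgbp was 914, Ltf 708 and Cd14 478, while Trf was 160 and Spp1 0.723. That Fcgbp value was above every adult library of the 3 strains, and those of Ltf and Cd14 lay within the adult range.

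The puberty libraries set growing tips of the tree beside the ducts behind them. Fcgbp was 5.14 CPM in LP/alveolar cells of the TEB and 331 in those of the duct, and Ltf was 74.6 and 636. Trf was 818 and 3529 and Spp1 155 and 349, while Cd14 was closer at 280.0 and 420. With 1 library each these differences have no replicate check, and all 5 genes were higher in the duct.

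Adult glands of C57BL/6 and SWISS were set beside the FVB/NJ ones in plain CPM. Spp1 was 0.384 CPM in C57BL/6 and 1244 in SWISS, against 2.70, 12166 and 36920 in FVB/NJ D12, A10 and P7. Trf was 738 in C57BL/6 and 1101 in SWISS, near the 958 of D12. Fcgbp was 513 in C57BL/6 and 358 in SWISS against 446 to 621 in FVB/NJ, and Cd14 was 395 and 320 against 373 to 2503. Ltf was 723 in C57BL/6 but 45.5 in SWISS. Glycam1 had no UMI in C57BL/6 LP/alveolar cells and 161 in those of SWISS, of which 4 cells held 64.0%. In SWISS, 9 cells of the fibroblast class held 3863 more, 99.8% of them in 4 cells. No cell of these libraries was named endothelial or mural, and a cluster named fibroblast there had the mural marker Rgs5 among its top genes. Whether the 9 cells were fibroblasts or vessel cells was not tested.

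Across classes, LP/alveolar cells held the highest level of a member in 103 of 123 pairs of member and library with over 3 UMIs. In adult A10, UMIs per cell of Trf were 69.3 in LP/alveolar, 2.34 in ML and 1.04 in basal cells, and those of Fcgbp were 2.45, 0.151 and 0.0411. Cd14 was the exception at lactation, with 7.14 and 12.7 UMIs per immune cell in F11 and D6 against 2.91 and 1.37 per LP/alveolar cell. Macrophage markers (5 genes) summed to 8.35 and 9.71 plain CPM in the lactation LP/alveolar class against 2.70 to 9.06 in adult. On the same scale 7 pan-immune markers summed to 4.45 and 11.6 against 0 to 1.87. Milk genes lower plain CPM at lactation, so these sums set lactation too low beside the scaled CPM of Cd14. The part of immune transcripts in the Cd14 level was not tested.

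**Figure D4:**
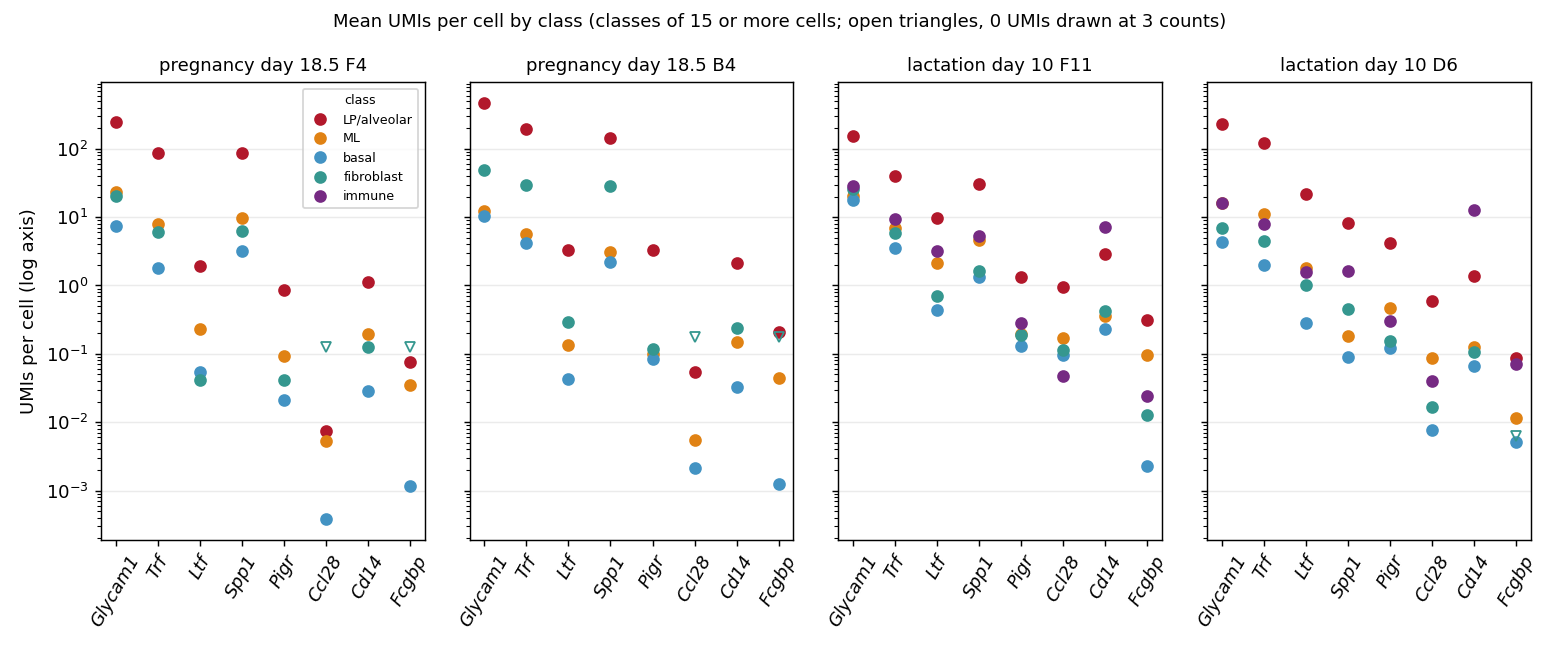
Mean UMIs per cell of each member (vertical log axis) by class in the pregnancy day 18.5 and lactation libraries, 1 panel per library and 1 coloured point per class of 15 or more cells, with open triangles for 0 UMIs drawn at 3 counts. LP/alveolar points lie above the other filled points except for Cd14 at lactation, where immune cells hold 7.14 and 12.7 UMIs, and the basal points of Glycam1, Pigr and Ccl28 at lactation lie below the fibroblast points. The points are not corrected for depth, which differs between classes.

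Members also passed the test in basal sums. There 3 of 8 members were called at day 12.5 (Glycam1 and Pigr higher and Fcgbp lower, against 0.815% of all genes in either direction). The same 3 were called in the same directions at day 18.5 (2.97%). At lactation 5 were called, each of them higher (Glycam1, Ltf, Pigr, Ccl28 and Cd14, 3.46%). In ML sums all calls were higher, with 2 at day 12.5 (Glycam1 and Pigr, 7.32%), the same 2 at day 18.5 (7.72%) and 4 at lactation (Glycam1, Ltf, Pigr and Ccl28, 4.83%). The basal lactation calls of Ltf, Ccl28 and Cd14 were lost without F11 (adjusted p = 0.17, 0.40 and 0.32). Those of Pigr and Fcgbp at day 12.5 were lost without H (adjusted p = 0.33 and 0.41), G (0.34 and 0.55) or D12 (0.099 and 0.054), and also without D6, F4 or B4 in turn (adjusted p = 0.050 to 0.089), as was that of Fcgbp without F11 (adjusted p = 0.059). The basal Fcgbp call at day 18.5 was lost without F4 or B4 (adjusted p = 0.13 and 0.18), and the ML call of Pigr at day 12.5 without H (adjusted p = 0.15). With clusters of each library alone the basal calls of Pigr and Fcgbp at day 12.5 (adjusted p = 0.059 and 0.092) and of Fcgbp at day 18.5 (adjusted p = 0.093) were lost, and without high Scrublet scores, which mark likely doublets, the day 12.5 calls of Pigr in basal (adjusted p = 0.051) and ML sums (adjusted p = 0.11) were. At lactation, ML cells held 0.170 and 0.0878 Ccl28 UMIs per cell (F11 and D6) and none in adult, beside 0.114 and 0.0168 in lactation fibroblasts. Pigr was 0.196 and 0.466 per ML cell against 0.190 and 0.156 per fibroblast, and Glycam1 20.2 and 16.1 against 25.7 and 7.04, so in F11 the ML level of Glycam1 lay below that of fibroblasts.

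Fibroblasts of the same libraries were read beside the basal cells. At lactation, basal cells held 0.132 and 0.121 Pigr UMIs per cell (F11 and D6) and fibroblasts 0.190 and 0.156. For Glycam1 the values were 17.6 and 4.32 in basal cells and 25.7 and 7.04 in fibroblasts, and for Ccl28 0.0960 and 0.00771 against 0.114 and 0.0168. In both libraries the basal value of each of these 3 transcripts was below the fibroblast one. These values are not corrected for depth, and basal cells were shallower. Their median was 1746 and 1788 UMIs in F11 and D6, against 2156 and 2348 in fibroblasts. Per 1000 milk reference UMIs, F11 gave 0.172 Pigr UMIs in LP/alveolar, 0.158 in basal and 0.147 in fibroblast cells, while D6 gave 0.285, 0.461 (from 47 basal UMIs) and 0.310. For Glycam1 the same ratio was 19.9, 21.1 and 19.9 in F11 and 16.02, 16.5 and 14.0 in D6. The part of free RNA, which droplets take up from broken cells, in these values was not tested. Fibroblasts of the adult FVB/NJ libraries (192, 51 and 32 cells) held no Glycam1, Pigr or Ccl28 UMI. The fibroblast class of adult C57BL/6, clustered in the same set as SWISS, held 16 Glycam1 UMIs in 2 cells.

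At day 12.5 the classes were less alike. Glycam1 per 1000 milk UMIs was 63.0 and 67.5 in LP/alveolar and 42.4 and 45.0 in basal cells, whereas Spp1 was 27.5 and 28.4 against 33.7 and 33.8. Milk reference genes took 0.984% and 0.769% of basal counts at that stage and 41.4% and 11.6% at lactation.

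Where the change differed between LP/alveolar and basal cells was tested as an interaction with library as a term. Spp1 was called at all 3 stages, with a more negative change in LP/alveolar than in basal cells, by a log2 difference of -3.53 (SE 0.76, adjusted p = 0.015) at day 12.5, -2.83 (SE 0.77, adjusted p = 0.020) at day 18.5 and -2.59 (SE 0.80, adjusted p = 0.044) at lactation (edgeR). It was the 1 member of 8 called at day 12.5 and day 18.5, where 9.05% and 23.8% of all genes were, and with Cd14 made 2 of 8 at lactation (17.6%). All 3 Spp1 calls were lost without P7 (-1.65 to -2.59, adjusted p = 0.077 to 0.20). The day 12.5 one was also lost without H or G (adjusted p = 0.11 and 0.075), the day 18.5 one without F4 (-2.00, adjusted p = 0.14) and the lactation one without F11 (-1.35, adjusted p = 0.34), H or G (adjusted p = 0.054 and 0.055). With clusters of each library alone the Spp1 calls at day 12.5 and day 18.5 were lost (-3.55 and -2.85, adjusted p = 0.066 and 0.075), and the lactation one was lost with at least 1000 genes per cell (-2.46, adjusted p = 0.052) and without high Scrublet scores (-2.68, adjusted p = 0.064). Spp1 UMIs per basal cell were 0.797, 0.253 and 0 in adult A10, P7 and D12 and 1.15 and 0.957 at day 12.5, 3.17 and 2.22 at day 18.5, and 1.31 and 0.0900 at lactation. Spp1 UMIs per fibroblast were 1.15, 0.0392 and 0 in adult A10, P7 and D12, 10.3 and 1.13 at day 12.5, 6.21 and 28.8 at day 18.5, and 1.63 and 0.448 at lactation, above the basal value in 7 of the 9 libraries, the exceptions being P7 and D12. The pregnancy values rest on 15 to 24 fibroblasts each, and the part of these counts in the interaction calls was not tested.

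For Cd14 the lactation difference was -2.91 (SE 0.67, adjusted p = 0.012, edgeR), and it was lost without F11 (-2.32, adjusted p = 0.13). Basal cells held 0.235 and 0.0668 Cd14 UMIs at lactation and 0.0296, 0.0276 and 0.0545 in adult libraries. Fibroblasts of the lactation libraries held 0.430 and 0.105. The other members at all 3 stages, and Cd14 in pregnancy, had log2 differences from -2.05 to 4.40 with adjusted p of 0.056 or more.

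Related genes were taken from lists by function and read in LP/alveolar cells. In the IgA transport list, 5 of 11 tested genes were called at lactation against adult, each of them higher and also higher in plain CPM, where 28.3% of all genes were called and 15.1% were called higher. The list had a median log2 change of 0.78 against -0.07 over all genes tested. The 4 with the largest changes were Igha (the IgA heavy chain), Igkc (a light chain), Jchain (which joins IgA into dimers) and Madcam1 (a vessel address for gut-type lymphocytes). Igha had no UMI in adult LP/alveolar cells and 0.0850 and 0.164 per cell at lactation, and Igkc reached 0.274 and 0.370. Jchain was 0.0386 and 0.0893 per cell. The other call was Mzb1 (4.39), named after its value was seen. Mzb1 and Madcam1 stood at a mean of 0.218 and 0.312 plain CPM at lactation and at 0.151 each in adult. Igkc and Jchain stood at 0.0208 each in adult. With adult levels at or near 0, these 5 genes had little room for a lower call. Their count is therefore not support beside the shares of all genes. Igha, Igkc, Jchain and Mzb1 are transcripts of plasma cells. The 7 pan-immune markers summed to 4.45 and 11.6 plain CPM in this class at lactation against 0 to 1.87 in adult. Their part in these calls was not tested.

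The receptor for IgG and the genes of vesicle movement in the same list were not called at lactation against adult. Fcgrt, the IgG receptor, was called lower at day 12.5 than in adult (log2 change -1.95, SE 0.45, adjusted p = 0.022), higher at day 18.5 than at day 12.5 (2.93, SE 0.48, adjusted p = 0.029) and lower at lactation than at day 18.5 (-2.05, SE 0.47, adjusted p = 0.0496, edgeR), each also in plain CPM. Its lactation change from adult was -1.07 (SE 0.44, adjusted p = 0.098). Rab11a, Rab25, Rab3d and Myo5b, which move vesicles through the cell, had lactation log2 changes of 0.39 (SE 0.27), -0.75 (SE 0.32), 0.08 (SE 0.32) and 0.78 (SE 0.43), with adjusted p of 0.11 to 0.87. These 5 were named after their values were seen. At day 12.5 the list had 1 higher and 1 lower call of 11, where 13.6% of all genes were called. At day 18.5 no gene of the list was called against adult, where 20.1% of all genes were.

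Of the other secreted and surface defence genes, 9 of 17 tested were called at lactation, each of them higher (15.1% of all genes), with a median of 2.15 over those tested, and 8 of the 9 kept that direction in plain CPM (the other was Muc1). The largest changes were Saa3 (10.16, SE 1.78, adjusted p = 0.0029) and Saa1 (7.83, SE 1.84, adjusted p = 0.011), acute phase proteins, then Lpo (6.75, SE 0.67, adjusted p = 0.00019), the milk peroxidase, and Lyz2 (4.06, SE 1.10, adjusted p = 0.022), a lysozyme of phagocytes (edgeR). Saa1 stood at 19.5 UMIs per cell in F11 and 0.348 in D6, and Saa3 at 6.00 and 0.0557, so 1 lactation library carried both. At day 12.5 the list had 2 higher and 4 lower calls, and at day 18.5 it had 5 and 2, where 13.6% and 20.1% of all genes were called.

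In the lipopolysaccharide sensing list, Ly96, Tlr2, Tirap and Tlr4 were higher and Rela lower at lactation, 5 of 12 tested against 28.3% of all genes, with log2 changes of 4.19, 2.49, 1.57, 1.01 and -1.77. Of the 4 higher ones only Ly96, which encodes the MD-2 partner of TLR4, was also higher in plain CPM. In the iron list 3 of 7 were called, all higher (15.1% of all genes), led by the transferrin receptor Tfrc (4.21, SE 0.39, adjusted p = 0.00012), then Fth1 (2.68) and Slc11a2 (1.65), and Slc11a2 turned in plain CPM. Among osteopontin receptors Itgav was higher (1.43, lower in plain CPM) while Cd44 (-3.73, SE 0.46, adjusted p = 0.0005) and Itgb3 (-3.65, SE 0.87, adjusted p = 0.013) were lower, 3 of 6 tested against 28.3% of all genes. All 7 milk reference genes were higher, with a median of 7.98.

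The genes whose LP/alveolar levels tracked each member most closely were ranked by Pearson's r over the 10 FVB/NJ sums, among 3876 genes. The r was taken on the log of plain CPM, not of scaled CPM. Leaving out TMM turned the lactation changes of Trf, Ltf and Cd14, as given above. The 10 points share libraries, depth and scaling, and the values are descriptive. Glycam1 ran closest to Fabp3 (r = 0.99), a fatty acid binding protein used here as an alveolar marker, then to Cd36 (0.98) and Thrsp (0.97), both of lipid metabolism. Pigr ran closest to Gm12863 (0.97), Wap (0.94), a milk protein, and Olah (0.93), and Ccl28 to Csn1s2b (0.97), a casein, Wfdc17 (0.95) and Slc39a8 (0.95).

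Trf ran closest to Btn1a1 (r = 0.90), a protein of the milk fat globule, then to Osbpl1a (0.88) and Lbp (0.87), which hands lipopolysaccharide to CD14. Ltf ran closest to Nupr1 (0.92), the chemokine Cxcl2 (0.91) and Ly6a (0.86), and Spp1 to Gdpd3 (0.96), Ocel1 (0.92) and Sectm1a (0.90). Cd14 ran closest to Gpx3 (0.94), Smpdl3a (0.93) and Rasd1 (0.93), and Fcgbp to Cited1 (0.98), an ML marker, Bhlhe41 (0.97) and Inhbb (0.97). The 3 genes nearest to Glycam1, Trf, Pigr and Ccl28 thus included at least 1 alveolar marker or milk reference gene, and those nearest to Ltf, Spp1, Cd14 and Fcgbp did not.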

How the data were processed

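Count tables were deposited per library as UMI counts per gene and cell barcode, made by the authors with Cell Ranger on mm10 (file headers name 3.0.2, and 3.1.0 for postnatal day 5 and pre-puberty), with no column left unused. Cells were filtered by the study's limits, which kept 132599 of 149371 barcodes, and no doublet removal was applied beyond the upper limits. FVB/NJ, puberty and other libraries were clustered as separate sets with Seurat 5.3.0 (20 dimensions, resolution 0.1) and named from markers. Counts were summed per library and class (at least 20 cells) and tested with edgeR 4.0.16 (TMM, filterByExpr, quasi-likelihood test) in R 4.3.3. DESeq2 1.42.0, no TMM, totals without milk genes, no filter, a minimum of 1000 genes, Scrublet scores, clustering per library and leaving out each library were alternatives. The code was tested on simulated data with known folds, for lactation against adult. There the LP/alveolar test recovered 2.5% of 2-fold, 63.75% of 4-fold and 100% of 16-fold changes. The interaction test recovered 0%, 10% and 90% of them, so changes of a few fold may go without a call. Intervals and floors (3 counts) cover counting error only. The members and lists were chosen with earlier results of these data known. Named were the 8 members, up to 4 called genes per list with the largest lactation change, and 3 genes nearest each member. Fcgrt, Rab11a, Rab25, Rab3d, Myo5b, Mzb1, Tlr4 and Muc1 fall outside this rule and were named after their values were seen. Gene models came from GENCODE vM21.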

Additional observations from a re-analysis of the deposited data

Results flagged for a closer look

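The change of Spp1 from adult differed between LP/alveolar and basal cells in an interaction test (edgeR), with LP/alveolar minus basal log2 differences of -3.53 at pregnancy day 12.5, -2.83 at day 18.5 and -2.59 at lactation. The change of Cd14 differed in the same way at lactation, by -2.91. These 4 values rest on 3 adult and 2 later libraries each. All 3 Spp1 calls were lost without P7 and that of Cd14 without F11 (adjusted p = 0.13). The Spp1 calls at day 12.5 and day 18.5 were also lost with clusters of each library alone (adjusted p = 0.066 and 0.075), and that at lactation with at least 1000 genes per cell or without high Scrublet scores (adjusted p = 0.052 and 0.064). In the same tests 9.05%, 23.8% and 17.6% of all genes were called at the 3 stages, against 1, 1 and 2 of the 8 members.

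The E18.5 skin library took part in no comparison. Over its 9025 cells and 50400347 UMIs, Trf stood at 11.3 CPM (572 UMIs), Spp1 at 0.933 (47), Cd14 at 0.893 (45), Ltf at 0.139 (7) and Ccl28 at 0.139 (7), each above the 0.0595 CPM that a count of 0 allows. Glycam1 and Fcgbp had 0 UMIs there and Pigr had 1.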

How the results depend on the processing

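Members called changed with the setting where effects were near the threshold. For day 18.5 against day 12.5 in LP/alveolar cells the count of 1 became 5 with DESeq2, 2 without TMM, 4 without the filter, 2 with clusters of each library alone and 0 to 5 without 1 library. For lactation against day 18.5 the count of 2 became 4 without the filter and 0 to 2 without 1 library, and for post-involution the count of 1 became 2 with DESeq2 or without the filter and 0 to 1 without 1 library. Against adult, leaving out 1 library gave 1 to 6 members at day 12.5, 3 to 5 at day 18.5 and 3 to 5 at lactation. In basal cells the day 12.5 count of 3 became 5 without the filter, 1 with clusters of each library alone and 1 to 3 without 1 library, and lactation gave 2 to 6. In ML cells the day 12.5 count of 2 became 4 without the filter and 1 to 3 without 1 library, and that of day 18.5 became 5 without the filter and 4 with own clusters. Interaction counts of 1, 1 and 2 (day 12.5, day 18.5, lactation) became 2 and 2 with DESeq2 at the pregnancy stages, 4 and 5 without TMM at the later ones, 4 at each without the filter, 2 and 1 at 1000 genes at the later ones, 1 without high Scrublet scores at lactation, 0, 0 and 4 with own clusters, and 0 to 4, 0 to 3 and 1 to 3 without 1 library. The number of all genes called also moved with the setting, as given below for LP/alveolar cells. These counts of members therefore cannot be read against the shares of all genes given earlier. The cause of these shifts was not tested.

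Without TMM, signs turned for Trf (-0.35 at day 18.5, -1.81 at lactation), Spp1 (-0.42 at day 18.5), Ltf (-0.51) and Cd14 (-2.61) at lactation, and for Glycam1 (-1.44), Trf (-1.46) and Pigr (-0.17) from day 18.5 to lactation. Cd14 at lactation was also -0.55 with totals outside milk genes, -0.018 without high Scrublet scores and -0.47 with own clusters. Leaving out 1 library spanned 0 for Cd14 (-1.19 to 1.39) and Spp1 (-2.57 to 0.49) at lactation, Trf (-0.026 to 1.68) and Spp1 (-0.13 to 1.59) at day 18.5, Trf from day 18.5 to lactation (-0.23 to 0.64), and Trf (-1.33 to 0.35), Spp1 (-1.21 to 0.50) and Cd14 (-1.64 to 0.10) after involution.

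Over all genes in LP/alveolar cells, calls at lactation went from 3922 (53.1% higher) to 12015 (2.8% higher) without TMM, those at day 18.5 from 2780 (52.3%) to 5170 (12.9%), and those at day 12.5 from 1882 (46.4%) to 1842 (28.0%). Day 18.5 against day 12.5 had 129 calls, 864 with DESeq2, 374 without TMM and 1047 without the filter, and lactation against day 18.5 had 412, 970, 10349 and 1378. No paired analysis was possible because the labels share no replicate numbers between stages. The paper reports that an FVB/N adult sample, not named further, and the post-involution sample were handled at the same time. It lists no other FVB/N stages in that way, and the part of processing in the stage differences was not tested. Removing LP/alveolar clusters with 50% or more milk counts was not run, since the 1 LP/alveolar cluster of the FVB/NJ set held 39.3%. Among clusters of each library alone, F11 (81.2%) and D6 (80.1% and 64.2%) had such clusters, and without them 46 LP/alveolar cells of F11 and none of D6 would be left.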
